A study of Mus musculus with 29 samples.

Results

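Atoh1 and Pou4f3 were mapped in the iP+A line, which expresses both, and their binding sites were compared with each other. The summits of the Atoh1 peaks and of the Pou4f3 peaks were each extended to a window of 300 bp, and windows that shared at least 1 bp were joined into 1 site. The 18949 Atoh1 peaks and 17082 Pou4f3 peaks formed 31430 sites, out of 78408 when all 9 peak lists of the series are joined in the same way. Of these sites, 4319 (13.7%) held a peak of both factors, 14450 (46.0%) held Atoh1 only and 12661 (40.3%) held Pou4f3 only.

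Atoh1 is a basic helix-loop-helix (bHLH) transcription factor that binds E-boxes, short palindromic motifs, as a dimer with an E protein, and it starts the differentiation of inner ear hair cells, cerebellar granule neurons and secretory cells of the gut. Pou4f3 (Brn3c) is a POU-domain factor that binds AT-rich DNA and is needed for hair cells to mature and survive. Both are expressed by developing hair cells.

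The iP+A line consists of mouse embryonic stem cells, derived from A2loxCre cells, with a doxycycline-inducible cassette of Pou4f3, Atoh1 and the fluorescent reporter Venus. Embryoid bodies, the clusters that stem cells form in suspension as they begin to differentiate, received doxycycline at 2 µg/ml for 48 h and were harvested at day 6. ChIP-seq, which sequences the DNA that is crosslinked to a protein, was done with an antibody to the Flag tag of Atoh1 and with one to the Myc tag of Pou4f3, each in 2 libraries, beside 2 input libraries. The lines used for comparison carried the same kind of cassette, the same parental cells and the same treatment, with Atoh1 alone (iAtoh1), Pou4f3 alone (iPou4f3), Gfi1 and Atoh1 (iG+A), Gfi1 and Pou4f3 (iG+P) or all 3 factors (iGPA). Uninduced cells are not analysed here, both factors were expressed from a transgene, and the peak lists alone do not allow the cell type to be checked against markers.

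Since peaks were called after the replicates had been merged, or on 1 library in the case of Gfi1, no value below has a spread between replicates. Shares are given with exact Clopper-Pearson 95% intervals, and differences of shares with Newcombe 95% intervals. These intervals cover counting error alone and treat sites as independent, which neighbouring sites are not. Every comparison of the 2 factors is also a comparison of 2 antibodies, and a site with both peaks was bound by both factors in the population of cells, not necessarily in the same cell. Per peak, the median ChIP signal recovered from the deposited values was 29 fragments for Atoh1 and 27 for Pou4f3, over a usual local background of 8.30 and 7.83 fragments.

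The sequences of the strongest sites of each class show the motifs on which the comparison turns. Each is 160 bases of the plus strand of mm9, and capitals mark the AtEAM core, the E-box that Atoh1 binds (CAGCTG, the box CAGATG, which reads CATCTG on the opposite strand, and the less frequent box CATATG), the Pou4f pattern ATAATTAAT with up to 1 mismatch on either strand, and the POU-like 8-mers ATAATGCA, AATAATGC and ATTATTCA that led at Pou4f3 only sites. Among the sites with both factors, the strongest by the geometric mean of the 2 folds lay at -105729 bp from the start of Ttc29 (negative is upstream) with 1 AtEAM core and folds over background of 33.6 for Atoh1 and 9.62 for Pou4f3. The next, with folds of 20.9 and 15.3, lay at -78509 bp from Thsd7a, where both summits fell on the same base between a CAGCTG box and a Pou4f match that overlaps ATAATGCA.
Both factors, nearest start Ttc29, chr8:80631387-80631546: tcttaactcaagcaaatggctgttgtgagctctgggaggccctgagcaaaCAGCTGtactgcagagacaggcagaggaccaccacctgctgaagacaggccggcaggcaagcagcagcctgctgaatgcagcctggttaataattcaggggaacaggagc
Both factors, nearest start Thsd7a, chr6:12777839-12777998: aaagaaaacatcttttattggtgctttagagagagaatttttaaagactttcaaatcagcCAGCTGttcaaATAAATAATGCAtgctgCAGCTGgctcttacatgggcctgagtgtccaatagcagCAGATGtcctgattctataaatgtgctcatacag
The Atoh1 only site with the highest fold, 33.1, lay in an intron near Spata17 and was an array that held 8 copies of CAGCTG in units of 20 bp.
Atoh1 only, nearest start Spata17, chr1:188995478-188995637: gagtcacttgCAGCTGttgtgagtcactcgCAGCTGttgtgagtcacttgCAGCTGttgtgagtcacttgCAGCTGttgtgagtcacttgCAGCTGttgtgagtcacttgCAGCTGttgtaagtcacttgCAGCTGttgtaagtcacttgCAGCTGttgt
The Pou4f3 only sites shown held no AtEAM core in this window. The site with the highest Pou4f3 fold, 42.3, lay at -61583 bp from Casz1 and held TGCATTATTCA, and the next that met the rule for printing lay in an intron at -5585 bp from Megf11.
Pou4f3 only, nearest start Casz1, chr4:148116875-148117034: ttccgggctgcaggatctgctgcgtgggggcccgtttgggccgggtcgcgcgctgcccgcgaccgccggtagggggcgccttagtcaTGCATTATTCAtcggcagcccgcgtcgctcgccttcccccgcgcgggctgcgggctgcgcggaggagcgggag
Pou4f3 only, nearest start Megf11, chr9:64502601-64502760: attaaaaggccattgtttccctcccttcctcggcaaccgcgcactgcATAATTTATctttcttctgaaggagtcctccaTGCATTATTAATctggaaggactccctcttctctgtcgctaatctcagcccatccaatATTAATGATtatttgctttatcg
A further set shows sites with both factors near genes with a known role in these lineages, and it was chosen after their values were seen. Nhlh1 encodes a bHLH factor of new neurons, Calb2 the calcium-binding protein calretinin of hair cells and neurons, and Map2 (Mtap2 in the annotation) a microtubule protein of dendrites.
Both factors, nearest start Nhlh1, chr1:173987847-173988006: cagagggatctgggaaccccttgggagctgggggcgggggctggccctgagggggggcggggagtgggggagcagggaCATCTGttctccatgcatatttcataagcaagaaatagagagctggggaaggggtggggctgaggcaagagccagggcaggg
Both factors, nearest start Calb2, chr8:112659621-112659780: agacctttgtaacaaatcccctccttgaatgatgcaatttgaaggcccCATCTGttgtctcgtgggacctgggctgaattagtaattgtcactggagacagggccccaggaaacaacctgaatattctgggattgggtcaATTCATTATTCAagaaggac
Both factors, nearest start Mtap2 (Map2), chr1:66274902-66275061: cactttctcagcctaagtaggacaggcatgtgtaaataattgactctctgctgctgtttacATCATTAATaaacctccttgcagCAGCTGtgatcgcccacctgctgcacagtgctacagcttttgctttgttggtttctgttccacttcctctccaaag

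The third site with both factors, near Tsc22d2, had folds of 18.7 and 16.9 and a peak in each of the other 7 lists, whereas the Thsd7a site had no Atoh1 peak in iAtoh1 or iG+A. The third Atoh1 only site, in an intron of Iffo2, had a fold of 20.8, and the Pou4f3 only sites near Osbpl7 (promoter) and Fcho1 had 33.2 and 19.4, with Pou4f3 peaks in iPou4f3, iG+P and iGPA at both.

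Whether Atoh1 and Pou4f3 share sites when expressed together was read from the joined sites. In iP+A, 23.0% of 18769 Atoh1 sites (22.4 to 23.6) held a Pou4f3 peak, and 25.4% of 16980 Pou4f3 sites (24.8 to 26.1) held an Atoh1 peak. When the factors were expressed in separate lines, 11.3% of the Atoh1 sites of iAtoh1 held a Pou4f3 peak of iPou4f3, which was 11.7 percentage points less (11.0 to 12.5). The share was therefore higher in the line that expressed both factors, beyond the counting error. In iP+A both lists came from the same line and the same inputs. The lists of the single-factor pair came from different lines with different inputs. The part of this in the difference was not tested. Joined sites with both factors numbered 4319 in iP+A and 1730 in the pair of single-factor lines.

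The 2 other pairs of lists lay between these. Atoh1 sites with a Pou4f3 peak made up 15.2% in iGPA, where Gfi1 was present as well, and the iP+A share was higher by 7.80 points (7.06 to 8.55). For Atoh1 of iG+A against Pou4f3 of iG+P it was 3629 of 20166 sites (17.5% to 18.5%), and the difference to iP+A was 5.02 points (4.21 to 5.82). Seen from the Pou4f3 side, the shares were 25.4% in iP+A, 21.1% in iGPA, 11.3% for iG+P with iG+A and 7.73% for iPou4f3 with iAtoh1. The lists differ in length, from 15568 to 32632 peaks, and each share depends on the length of both lists. As in iP+A, both lists of iGPA came from the same line and inputs, whereas those of iG+A and iG+P did not.

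**Figure D1:**
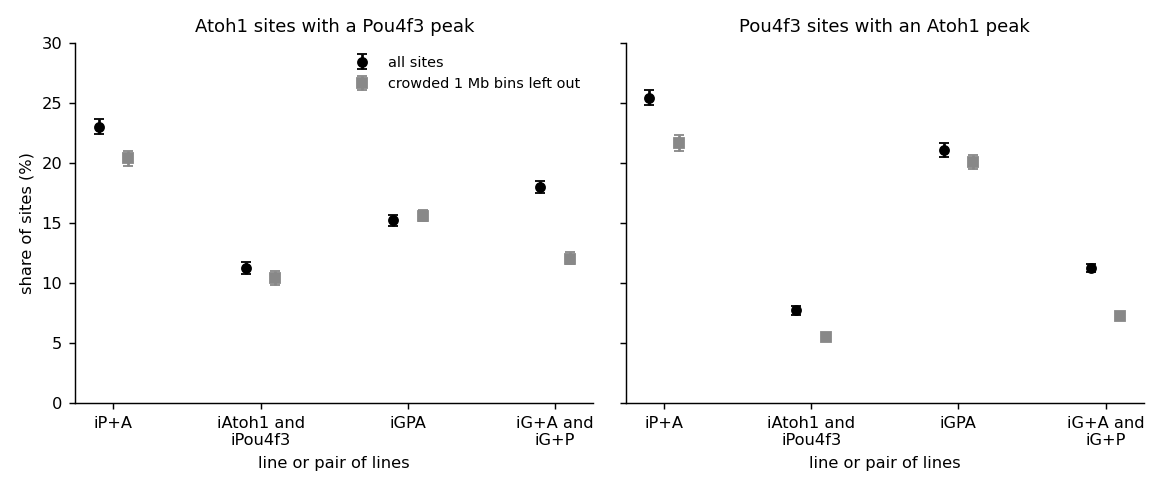
Share of Atoh1 sites with a Pou4f3 peak (percent) for the pairs of peak lists, over all sites and outside the 1 Mb bins that were crowded with iP+A sites, with 95% Clopper-Pearson intervals. The iP+A share is the highest on both bases (23.0% and 20.4%), the single-factor pair the lowest on both (11.3% and 10.4%), and the pair of iG+A with iG+P has 12.0% outside the bins.

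Sites with both factors were crowded in a few stretches of the genome. The 36 bins of 1 Mb with at least 50 iP+A sites, out of 2467 bins with any site and a median of 9 sites per bin, held 27.7% of the sites with both factors (26.4 to 29.1), against 15.5% of Atoh1 only and 10.6% of Pou4f3 only sites. The bins were chosen from the iP+A sites themselves after the data were seen. The bins with the most sites lay on chromosome 4 at 146 to 147 Mb (415 sites) and 145 to 146 Mb (356 sites), on chromosome 14 from 3 to 9 Mb (185 to 339 sites per bin), on chromosome 13 at 12 to 13 Mb (181 sites) and on chromosome 12 at 116 to 117 Mb (171 sites). Most shared sites of the genes with the largest numbers of them lay there. These genes were Prl2c3 and Prl2c2 of the placental prolactin family with 57 and 20, the immunoglobulin segment Ighv1-73 with 57, and the predicted genes Gm13242, Gm13152, Gm13151, Gm13138 and Gm3667 with 19 to 27. Of the 247 sites with both factors nearest to these 8 genes, 234 lay in the crowded bins.

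Inside these bins the motifs of sites with both factors stood at or little above the flanks. The AtEAM core was found around 29.8% (27.2 to 32.4) of the Atoh1 summits of sites with both factors, against 30.6% in flanking windows, and the Pou4f pattern around 16.8% (14.7 to 19.05) of the Pou4f3 summits, against 13.3%. At Atoh1 only sites inside the bins the core was found around 35.3% (33.3 to 37.3) of the summits, against 31.1% in the flanks. The full AtEAM pattern was found around 3.88% (3.12 to 4.76) of Atoh1 only summits, against 1.58% in the flanks. Around the Atoh1 summits of sites with both factors it was found in 2.59% (1.77 to 3.66), against 1.84%. The Pou4f pattern was found around 17.1% (15.1 to 19.2) of Pou4f3 only summits, against 11.4%. For sites with both factors outside the bins the same shares were 65.2% against 31.7% for the core and 29.1% against 8.66% for the Pou4f pattern. Crowding also differed between lists: the bins held 27.1% of the Atoh1 peaks of iAtoh1, 18.5% of the Atoh1 peaks and 15.1% of the Pou4f3 peaks of iP+A, and 5.78% of the Pou4f3 peaks of iPou4f3. The local background was high, at over 2 times its usual value, for 4.82% of the iP+A Atoh1 peaks in the bins and for 0.622% outside, and its part in the crowding was not tested. Values below are over all sites unless they are said to be outside the bins.

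**Figure D2:**
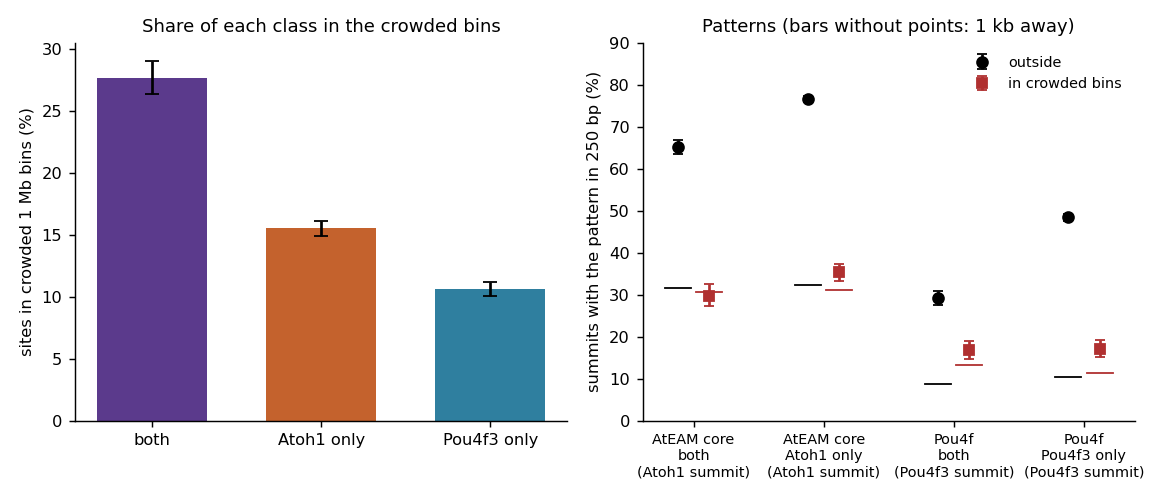
Left, percent of the sites of each class in the crowded 1 Mb bins. Right, percent of summits with each pattern within 250 bp, inside and outside the bins, with 95% intervals. Sites with both factors are the class with the largest part in these bins (27.7%), and the share of their Atoh1 summits with an AtEAM core is at the level of the flanks, drawn as short lines, inside the bins (29.8% against 30.6%) and above it outside (65.2% against 31.7%).

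Without the crowded bins, 3123 sites held both factors, and 20.4% of the Atoh1 sites of iP+A held a Pou4f3 peak (19.7 to 21.0). The share was 10.4% for iAtoh1 with iPou4f3, 15.6% in iGPA and 12.0% for iG+A with iG+P. iP+A stayed higher by 9.93 points (9.07 to 10.8), 4.77 points (3.98 to 5.56) and 8.33 points (7.52 to 9.14), respectively. The iGPA and the iG+A with iG+P pair thereby changed places in the order.

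Sites with 1 peak of each factor had summits less than 300 bp apart by the joining rule, so the median distance depends on the window. Within that limit short distances were the most frequent. The median distance was 46 bp (exact 95% interval 44 to 49) with quartiles of 19 and 108 bp, and 52.7% (51.2 to 54.2) lay within 50 bp. Both summits fell on the same base at 45 sites. The bin of 0 to 24 bp held 1308 sites (30.3%), that of 25 to 49 bp 940, that of 50 to 74 bp 506 and that of 75 to 99 bp 384, whereas only 18 sites had a distance of 300 bp or more, up to 472 bp, by chains of joined windows. At 4173 of the sites (96.6%) there was 1 peak of each factor. Pou4f3 lay at the higher coordinate in 49.4% (47.9 to 50.9) of the sites whose summits differed, so neither order along the chromosome exceeded the other beyond the counting error.

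The distances did not stop at the joining limit. Of all Atoh1 peaks, 16.8% had the nearest Pou4f3 summit within 100 bp, 3.96% at 100 to 199 bp, 2.46% at 200 to 299 bp and 1.91% at 300 to 399 bp. Just inside the limit, at 275 to 299 bp, there were 124 Atoh1 peaks, and just outside, at 300 to 324 bp, there were 89, with a median fold of 3.01 in both. The median summit distance was 83 bp for iAtoh1 with iPou4f3, 66 bp for iG+A with iG+P and 34 bp in iGPA.

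**Figure D3:**
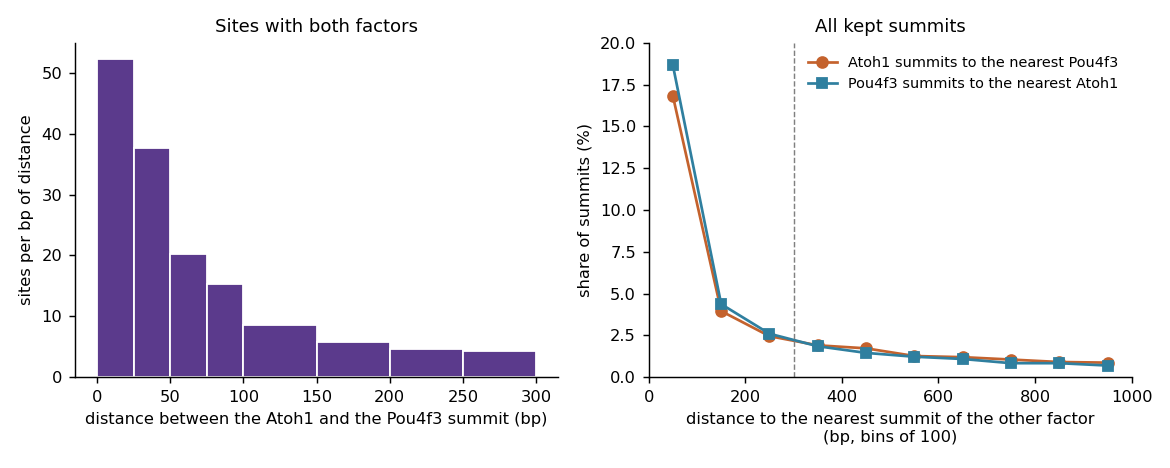
Distance between the Atoh1 and the Pou4f3 summit in bp, over the sites with both factors and over all peaks of iP+A (percent of peaks). The first 25 bp hold 30.3% of the sites with both factors, and the share of Atoh1 peaks falls from 16.8% in the first 100 bp to 3.96% in the next.

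Peaks were stronger where both factors were found. The median Atoh1 fold over background was 3.33 (3.33 to 3.41) at sites with both factors and 3.03 (3.01 to 3.12) at Atoh1 only sites, and the median Pou4f3 fold was 3.28 and 3.06. The exact intervals of the medians did not overlap for either factor, although the Pou4f3 difference was 0 once both lists were limited to peaks of −log10 p 10 or more. A fold of at least 8 was reached by 224 Atoh1 peaks (5.19%) at sites with both factors and by 283 (1.96%) at Atoh1 only sites. For Pou4f3 the counts were 148 (3.43%) and 182 (1.44%).

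The share of sites with both factors rose with peak strength. The share was 16.3% in the weakest of 10 equal groups of Atoh1 sites ranked by fold and 35.1% (32.9 to 37.3) in the strongest, and 18.4% and 34.3% (32.1 to 36.6) in the weakest and the strongest group of Pou4f3 sites. At −log10 p 20 or more, a limit that the peaks of both lists had to pass, 11.0% of the Atoh1 sites held a Pou4f3 peak. Over the 4319 sites the Atoh1 and Pou4f3 folds had a Spearman rho of 0.290, given as a description, as both came from the same line and inputs. By chromosome, the share of Atoh1 sites with Pou4f3 ranged from 16.9% on chromosome 11 to 30.1% on chromosome 14, which holds 6 of the most crowded bins.

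Over all sites the classes differed little in their place in the genome, with Atoh1 only sites nearer to starts. Within 1 kb of an annotated transcription start lay 25.7% of Atoh1 only sites (3708 sites), 23.1% of sites with both factors (21.9 to 24.4) and 20.0% of Pou4f3 only sites (19.3 to 20.7). The difference between the single-factor classes was 5.69 points (4.69 to 6.68). The sites with both factors lay between them, -2.53 points (-3.96 to -1.07) from Atoh1 only and 3.16 points (1.73 to 4.61) from Pou4f3 only, but outside the crowded bins they had 29.0% and the difference to Atoh1 only was 0.342 points and no longer passed. Among stronger peaks the difference to Atoh1 only was larger. It was -13.2 points (9.85% against 23.0%) at −log10 p 10 or more and -14.9 points (5.31% against 20.2%) at 20 or more. The difference to Pou4f3 only turned to -2.18 points with windows of 100 bp, to -1.78 with all called peaks, and to -4.33 and -7.10 at −log10 p 10 or more and 20 or more. Introns held 32.3%, 32.5% and 35.4% of the sites with both factors, Atoh1 only and Pou4f3 only, and intergenic DNA 42.0%, 38.7% and 42.6%. Coding exons held 48, 221 and 76 sites, or 1.11%, 1.53% and 0.600%. The median distance to the nearest start was 9849, 8031 and 12682 bp.

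The sequence around the summits separated the single-factor classes and placed the sites with both factors between them. AtEAM, an extended E-box known as the preferred motif of Atoh1, was found within 250 bp around 17.2% of the Atoh1 summits of Atoh1 only sites and 9.77% of those of sites with both factors, a difference of -7.47 points (-8.52 to -6.36). In the flanks, 1 kb away, the shares were 2.16% and 2.12%, and 2.13% of all 250 bp tiles of the genome held the pattern. At the Pou4f3 summits, AtEAM was found at 8.27% of the sites with both factors and 1.46% of Pou4f3 only sites, a difference of 6.80 points (5.99 to 7.69). Outside the crowded bins, AtEAM was found around 19.7% of Atoh1 only and 12.5% of shared Atoh1 summits. The shorter AtEAM core occurred around 70.2% of Atoh1 only, 55.4% of shared Atoh1, 49.5% of shared Pou4f3 and 27.8% of Pou4f3 only summits, against 31.9% of all tiles.

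Of the AtEAM cores, CAGCTG was found around 44.5% of Atoh1 only and 29.9% of shared Atoh1 summits, with 11.7% and 9.91% in the flanks, and CAGATG around 39.8% and 30.2%, with 18.3% and 18.2% in the flanks. CAGCTG was also found around 24.5% of the shared Pou4f3 summits and 9.26% of the Pou4f3 only summits. The general E-box CANNTG matched 73.8% of all tiles and so separated little.

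The Pou4f pattern went the other way. It was found around 45.1% of the Pou4f3 summits of Pou4f3 only sites and 25.7% of those of sites with both factors, a difference of -19.3 points (-20.9 to -17.7), with 10.6% and 9.93% in the flanks and 11.7% of all tiles. At the Atoh1 summits it was found at 23.1% of the sites with both factors and 6.59% of Atoh1 only sites, a difference of 16.5 points (15.2 to 17.8), and the latter lay below its flank of 8.42%. Outside the crowded bins, the Pou4f pattern was found around 48.4% of Pou4f3 only and 29.1% of shared Pou4f3 summits, and around 26.0% of shared Atoh1 and 5.86% of Atoh1 only summits. The exact pattern ATAATTAAT was found at 8.82% of Pou4f3 only sites and 2.43% of sites with both factors. The octamer ATGCAAAT, which the stem cell factor Oct4 binds, was found at 1.88% of the shared Pou4f3 summits and 2.23% of the Pou4f3 only summits, near its flank shares of 2.19% and 2.00%.

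The patterns lay near the summit of their own factor. At sites with both factors the median distance from an Atoh1 summit was 21.5 bp to the nearest AtEAM core and 40 bp to the nearest Pou4f match, and from a Pou4f3 summit it was 38 bp and 24 bp. At single-factor sites the own pattern was at 19.5 bp for Atoh1 and 20 bp for Pou4f3. At 755 sites with both factors that were counted as holding both patterns, the median gap between the patterns was 32 bp (29 to 36). It was 31 bp (28 to 36) at the 657 Atoh1 only sites with both patterns in the 250 bp around the Atoh1 summit. Around the Atoh1 summit alone, 699 sites with both factors held both patterns, so the gaps of the 755 were not read from that window. Of the 755 sites, no more than 27 (3.58%) shared a gap, which was 15 bp.

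**Figure D4:**
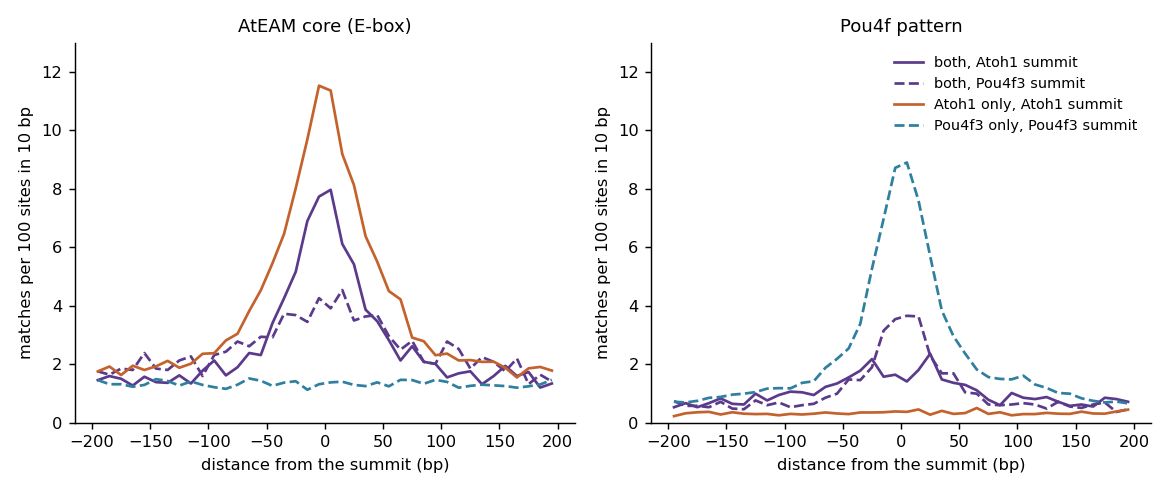
Matches of the AtEAM core and of the Pou4f pattern per 100 sites in 10 bp steps from the summit (bp). The AtEAM core peaks at the Atoh1 summits and the Pou4f pattern at the Pou4f3 summits, with lower peaks at sites with both factors than at single-factor sites.

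GC content ranked the classes in the same order as the AtEAM core. Median GC content in 250 bp was 52.4% around Atoh1 only summits, 46.4% around shared Atoh1 summits, 45.6% around shared Pou4f3 summits and 42.4% around Pou4f3 only summits. Outside the crowded bins it was 54%, 50%, 49.2% and 42.8%. CGCG, a mark of CpG-rich DNA, did not place the shared sites between the others. It was found around 21.9% of shared Atoh1, 21.7% of Atoh1 only and 17.1% of Pou4f3 only summits, against 2.60% of all tiles.

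An unguided count of all 8-mers within 100 bp of the summits, ranked by their ratio to the flanks, gave the same families. At Pou4f3 only sites ATAATGCA was found at 13.3% (0.351% in the flanks), AATAATGC at 12.0% and ATTATTCA at 11.6%, letters that the Pou4f pattern does not require. The leading 8-mers of Atoh1 only sites all held a core, GCAGCTGC (4.90%), AACAGCTG (7.94%), CAGCTGTC (7.83%) and CAGATGGC (6.54%). At sites with both factors ATAATGCA was found at 4.17% of the Pou4f3 and 2.85% of the Atoh1 summits, and GCAGCTGC at 3.17% of the Atoh1 summits. Any of the 3 leading Pou4f3 8-mers was found within 250 bp at 22.4% of Pou4f3 only, 10.2% of shared Pou4f3, 9.17% of shared Atoh1 and 1.88% of Atoh1 only summits, where 1.99% to 2.63% of flanks held one. These 8-mers were picked at the Pou4f3 only summits, so the higher share of that class was favoured by the choice and is a description.

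Sites with both factors were next grouped by whether an AtEAM core lay at the Atoh1 summit and a Pou4f match at the Pou4f3 summit. Both were found at 800 sites (18.5%), the AtEAM core only at 1593 (36.9%), the Pou4f match only at 311 (7.20%) and neither at 1615 (37.4%). The Pou4f pattern misses other POU-like sequences, such as TGCATTATTCA of the Casz1 site, so sites without a match can hold one. Of the flanks of these sites, 31.3% held an AtEAM core and 9.93% a Pou4f match, so some matches are background. The sites with both patterns were seldom promoters, 7.13% (5.44 to 9.13) against 30.9% (28.6 to 33.2) of those with neither, and they had the higher folds, with medians of 3.76 for Atoh1 and 3.85 for Pou4f3 against 3.12 and 3.17. Their summits lay a median of 40 bp (36 to 43) apart against 50 bp (46 to 55).

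The peak lists of the other lines did not define these sites. They show where the same DNA had a peak of each factor without the partner's transgene or, in iGPA, with it. Expression of the partner's own gene was not analysed here. A site with both factors had an Atoh1 peak in iAtoh1 in 35.4% of cases, against 42.8% of Atoh1 only sites, a difference of -7.35 points (-8.98 to -5.70). The difference was -16.9 points (-18.7 to -15.1) outside the crowded bins and turned to 18.4 with all called peaks, the left-out ones included. A Pou4f3 peak in iPou4f3 was found in 47.0%, against 61.7% of Pou4f3 only sites, a difference of -14.8 points (-16.5 to -13.0). In iGPA, where the factors were together with Gfi1, 64.4% of sites with both factors had the Atoh1 peak and 46.7% the Pou4f3 peak. The Gfi1 list of iGPA, which comes from 1 library, covered 10.9% (9.97 to 11.8) of them, against 4.23% of Atoh1 only and 2.27% of Pou4f3 only sites.

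Sites with both patterns had an Atoh1 peak more often in iGPA than in the lines without Pou4f3. An Atoh1 peak was found at 13.4% of them in iAtoh1 and 13.5% in iG+A, which lack the Pou4f3 transgene, and at 79.4% in iGPA. Of the sites with neither pattern, 45.1%, 42.4% and 48.2% had the peak. The differences were -31.7 points (-35.0 to -28.2) in iAtoh1 and 31.2 points (27.4 to 34.8) in iGPA. A Pou4f3 peak was found at 62.0% of the sites with both patterns in iPou4f3, 68.9% in iG+P and 82.0% in iGPA, against 42.4%, 63.7% and 26.2% of the sites with neither. Outside the crowded bins the Atoh1 shares of the 722 sites with both patterns were 7.48% in iAtoh1, 9.28% in iG+A and 81.7% in iGPA, and those of the 898 sites with neither were 32.1%, 36.7% and 52.2%. The Pou4f3 difference between sites with both patterns and with neither was 19.6 points (15.5 to 23.7) in iPou4f3 over all sites and 6.75 points (1.96 to 11.5) outside the bins, where the shares were 64.0% and 57.2%. In iGPA it was 55.8 and 51.1 points. For sites with an AtEAM core only, the Atoh1 shares outside the bins were 34.0%, 37.6% and 79.9%. The groups also differed in promoter share and fold, as given above, and the part of these in the shares was not tested.

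**Figure D5:**
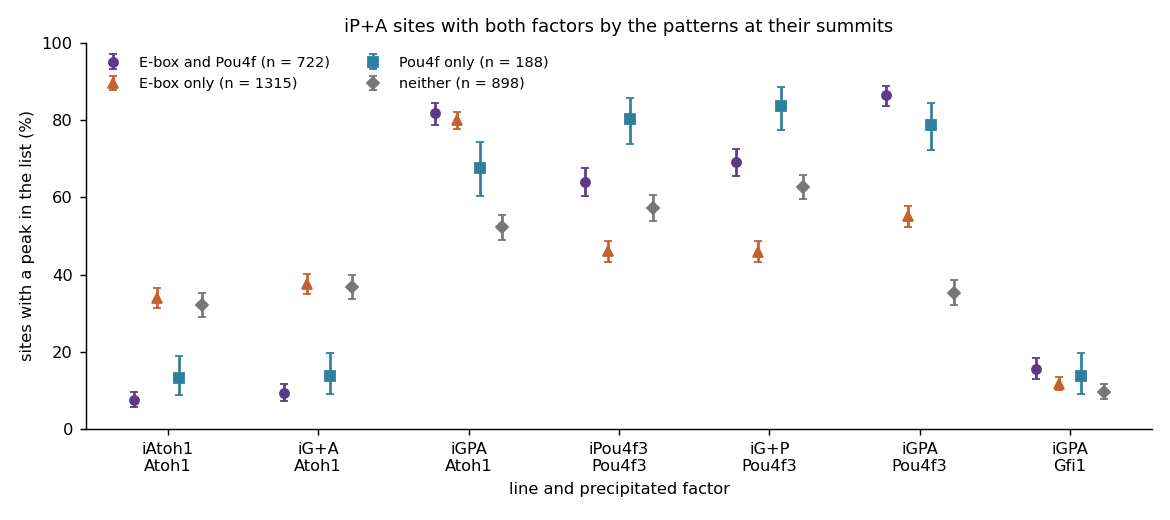
Share of the iP+A sites with both factors that had a peak in each other list (percent), by sequence content, outside the crowded bins, with 95% intervals. Sites with an AtEAM core and a Pou4f match have an Atoh1 peak in 7.48% of cases in iAtoh1 and in 81.7% in iGPA.

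By their state in the single-factor lines, the 4319 sites fell into 594 (13.8%) bound by each factor alone, 935 (21.6%) bound by Atoh1 alone only, 1435 (33.2%) by Pou4f3 alone only and 1355 (31.4%) by neither. Bound means here a peak in the summit list, which left out 35.5% of the called peaks of iAtoh1 and 16.2% of those of iPou4f3. With all called peaks in every list, 65.3% of 9445 sites with both factors had an Atoh1 peak in iAtoh1 and 45.4% a Pou4f3 peak in iPou4f3. The group sizes thus depend on that step. Outside the crowded bins these groups held 395 (12.6%), 419 (13.4%), 1338 (42.8%) and 971 (31.1%), so that the bins held most of the sites bound by Atoh1 alone. Sites bound by Pou4f3 alone had both patterns in 30.9% of cases (28.5 to 33.3), those bound by Atoh1 alone in 5.78% and those bound by neither in 18.5%, and outside the bins the shares were 32.3%, 5.73% and 24.3%. In iGPA, 74.2% of the sites bound by Pou4f3 alone had a Pou4f3 peak again and 70.4% had an Atoh1 peak.

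Each site was assigned to the gene with the nearest start among 22239 genes, protein-coding genes and listed genes. No limit was set on the distance. Of these genes, 12.1% (2687) were nearest to at least 1 site with both factors, 37.5% (8340) to an Atoh1 site and 35.2% (7823) to a Pou4f3 site. The gene lists are textbook lists and were chosen with earlier results of these data known. The lists differ in how many sites each gene collects. The median number of sites per gene was 1 over all genes and 4 to 5 in the lists of regulators and axon guidance genes.

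The list of hair cell and neural regulators had the highest share, with 19 of 49 genes near a site with both factors. Of the pan-neuronal genes 12 of 37 had one, of the axon guidance genes 15 of 50, of the collagen and matrix genes 7 of 25, of the sensory neuron genes 9 of 34, of the mesoderm and endoderm genes 7 of 29, of the proneural and E or Id bHLH genes 6 of 26, of the hair cell genes 10 of 49, of the Notch pathway genes 6 of 34 and of the pluripotency genes 3 of 25. The 95% intervals of the shares lay above the 12.1% of all genes for the regulators (25.2% to 53.8%), pan-neuronal (18.01% to 49.8%), axon guidance (17.9% to 44.6%) and sensory neuron genes (12.9% to 44.4%). They reached down to that share or below it for the other lists, such as the hair cell genes (10.2% to 34.3%). With sites counted within 50 kb of any start instead, 19.2% of all genes and 20.4% of the hair cell genes had a shared site. By that rule the share was 30.6% for the regulators, 27.0% for the pan-neuronal, 26.0% for the axon guidance and 20.6% for the sensory neuron genes. No intervals were computed for these shares, so an excess beyond the counting error was seen for the nearest start only and was not tested by this rule. The regulators had 18 of 49 without the crowded bins, and the other counts were the same there. With the nearest of all annotated starts instead, 9.51% of all genes, 2 of 34 Notch pathway genes (5.88%) and 8% of the pluripotency genes had a shared site. The share was then 28.6% for the regulators, 24.3% for the pan-neuronal, 24.0% for the axon guidance and 17.6% for the sensory neuron genes, again without intervals. Atoh1 sites were near 84.0% of the axon guidance genes and Pou4f3 sites near 78.0%.

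Among hair cell genes, Lhx3, a LIM homeobox factor of hair cells and motor neurons, had 2 sites with both factors. The site at chr2:26024347-26024722 had an Atoh1 fold of 11.7 and a Pou4f3 fold of 4.19, and the site at chr2:26023212-26023577 had 4.52 and 4.19. Whrn, which encodes the stereocilium protein whirlin, had sites at -485 bp from the start (4.20 for Atoh1 and 2.60 for Pou4f3) and at -6789 bp (7.31 and 3.28). Calb2 had 1 site 32405 bp downstream of the start, with both summits on the same base and folds of 6.24 and 4.87, and no Atoh1 peak there in iAtoh1. At Myo6, an unconventional myosin of hair cells, the promoter site at 278 bp had a Pou4f match without an AtEAM core and folds of 2.90 for Atoh1 and 7.70 for Pou4f3.

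Sensory neuron genes were represented by Runx1 with 3 sites, Pou4f1 (Brn3a) with 2, and Ntrk3, the receptor of neurotrophin-3, and Shox2 with 1 each. The Ntrk3 site, in an intron at chr7:85616674-85616994, had a Pou4f3 fold of 13.2 and an Atoh1 fold of 4.84, and no Atoh1 peak in iAtoh1. The 3 Runx1 sites had Atoh1 folds of 3.33 to 3.98 and Pou4f3 folds of 3.40 to 4.08, and a Pou4f3 peak in iPou4f3 at each. They lay far from the start, at -109442, -150102 and -276458 bp. Of the Pou4f1 sites, that at -5529 bp had folds of 3.33 and 5.32, and the other lay at 274507 bp. The Ntrk3 site lay at -94126 bp and the Shox2 site at 333532 bp.

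Of the pan-neuronal genes, Elavl4 (HuD), which encodes an RNA-binding protein of neurons, had 4 shared sites, at distances of -409 to 94995 bp from its start, with Atoh1 folds of 2.37 to 3.98, and its relative Elavl2 had 2. Map2 had 1 intronic site with folds of 8.50 and 5.21. Celf4 had 2.

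Axon guidance genes included Ephb1, whose intronic site at chr9:102113679-102114037 had folds of 15.3 for Atoh1 and 7.47 for Pou4f3, with peaks in iAtoh1 and in iPou4f3. Ephb2 and Epha7, which encode other ephrin receptors, had 2 sites each, with the highest folds of 9.14 for Atoh1 and 5.09 for Pou4f3 at Ephb2 and of 4.63 and 8.72 at Epha7. Nrcam, a cell adhesion molecule, had 3.

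The named Notch pathway genes each had 1 shared site, at Hey1 (6.56 for Atoh1 and 4.30 for Pou4f3, -39426 bp), Dll4 (7.31 and 2.72), Dlk1 (4.20 and 2.94) and Hes7 (3.66 and 2.60). At Hey1, a target of Notch, the strongest Atoh1 peak, at -64497 bp with a fold of 18.8, had no Pou4f3 peak.

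The bHLH genes included the strongest shared site of all named genes. At Nhlh1 the site at -223 bp, with the sequence given above, had folds of 21.4 for Atoh1 and 13.9 for Pou4f3, a summit distance of 15 bp, and a peak in all other 7 lists. Id2, an inhibitor of bHLH factors, had 4 shared sites with Atoh1 folds of 3.12 to 4.63, and Tcf3, an E protein, had 1. Among further regulators, Barhl1, a homeobox factor of hair cells, had 4 shared sites between -1327 and -36561 bp, with Atoh1 folds of 2.69 to 5.06. Myt1l, a neuronal zinc-finger factor, had 2.

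Of the pluripotency genes, Sall4 had a promoter site 37 bp from its start with a Pou4f3 fold of 18.3 and an Atoh1 fold of 2.69. It had a Pou4f3 peak in the iPou4f3 summit list but no Atoh1 peak in that of iAtoh1. Esrrb had 1 intronic site (4.84 and 5.77) and Tbx3 1 site (6.56 and 3.85). Mesoderm, endoderm and matrix genes with a shared site included Tbx20, Cdh5, Cdx2, Pdgfra, Col4a1, Lamb1, Col11a1 and Col4a2, all with folds of at most 6.02.

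The induced factors themselves carried sites. Atoh1 had a shared site at 441 bp from its start with folds of 4.84 for Atoh1 and 6.68 for Pou4f3, and another at -71892 bp in an intron of another gene, with folds of 2.80 and 2.73. Pou4f3 had shared sites at -1328 bp (3.23 and 8.38) and at 1204 bp, and Gfi1 had 1 shared site at 2304 bp (3.01 and 4.19). The sites at 441 bp and at 1204 bp overlap coding exons of Atoh1 and Pou4f3, which the cassette carries too, so that fragments of the transgene and of the genome cannot be told apart there.

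Taking all shared sites near the named genes of the lists and near the induced factors, 14 of 63 had an Atoh1 peak in iAtoh1, 52 an Atoh1 peak in iGPA, 38 a Pou4f3 peak in iPou4f3 and 51 a Pou4f3 peak in iGPA. An AtEAM core with a Pou4f match was found at 23, and 8 lay in promoters. Over all 4319 shared sites these shares were 35.4%, 64.4%, 47.0% and 46.7% for the peaks in the same order, 18.5% for both patterns and 23.1% for promoters. All 63 lay outside the crowded bins. Over the shared sites outside the bins the shares were 26.1%, 71.6%, 55.5% and 58.1%, 23.1% for both patterns and 29.0% for promoters. The list genes were picked for having the most shared sites, so the 63 are not a sample of all.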

How the data were processed

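ChIP-seq peak lists of the iP+A line were analysed, from 2 Atoh1 ChIP, 2 Pou4f3 ChIP and 2 input libraries, beside the 7 lists of the other lines. Sample titles gave the groups. The study's methods state trimming with Trimmomatic, alignment to mm9 with Bowtie 2, removal of duplicates and of blacklisted regions, and peak calling by MACS 2 after ChIP replicates and inputs had each been merged. Versions are not given in the sources used here. The fold enrichment deposited by the authors is a ratio of ChIP fragments to local background at the summit, and the deposited −log10 p is that of MACS 2. Only peaks in the authors' summit lists were used, and the deposited signal score of those lists was left aside. Library depths are not used here.

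Fragments and background per peak were recovered as the whole number that gave both the fold and the −log10 p within 0.001. Windows of 300 bp were joined at 1 bp of overlap, and a peak of another list counted at a site by the same overlap. Patterns were searched on both strands in 250 bp, with flanks 1000 bp to each side, in NCBIM37 (the assembly of mm9), and genes were those of GENCODE vM1. AtEAM is a degenerate 10-letter pattern. Differences of shares were called where the Newcombe 95% interval left out 0, and differences of medians where exact intervals did not overlap. Python 3.11.15, numpy 2.4.6, pandas 2.3.3 and scipy 1.17.1 were used, and the scripts were tested on simulated data. One listed gene, Drgx, was not matched, and Map2 was matched by its older name.

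Members, gene lists and settings were chosen with earlier results of these data known. Named sites were the 3 of each class with the highest fold on chromosomes 1 to 19 and X, and printed sequences the highest of each class outside short tandem repeats, chromosome 18 and untranslated regions. 1 Atoh1 only site is not reported here. Named genes were up to 4 of each list with the most sites of both factors, the 8 genes with the most such sites, and the induced factors. Alternatives were windows of 100 and 1000 bp, full peak intervals, every called peak, −log10 p from 10 up, lists of equal length, autosomes, no joining, other pattern and promoter widths, and each chromosome left out. Leaving out sites at high background, −log10 p from 20 up and leaving out the crowded bins were added after seeing the data.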

Additional observations from a re-analysis of the deposited data

Results flagged for a closer look

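Of the Atoh1 only sites, 9.46% (1367 of 14450, 8.99 to 9.95) overlapped a Pou4f3 peak that was called but left out of the summit list by a step not stated, so a signal lay in data outside the comparison. Of the Pou4f3 only sites, 4.28% (542 of 12661) overlapped such an Atoh1 peak. The share of Atoh1 sites with a Pou4f3 peak differed between iP+A and iGPA, which also carries the Gfi1 transgene, by 7.80 points (7.06 to 8.55), and by 4.77 points (3.98 to 5.56) outside the crowded bins. The other pair with and without Gfi1 went the opposite way, with 3629 of 20166 sites (17.5% to 18.5%) for iG+A with iG+P against 11.3% (10.8% to 11.8%) for iAtoh1 with iPou4f3, a difference that was not itself tested. Outside the crowded bins these shares were closer, 12.0% (11.5% to 12.6%) and 10.4% (9.88% to 11.0%).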

How the results depend on the processing

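No paired analysis was possible because peaks were called on merged replicates, and for the same reason no replicate could be left out. Of 200 alternatives of the tested differences, 188 kept their direction and their side of the threshold. Those of the overlap between iP+A and the single-factor lines (8.71 to 18.3 points), of the motif shares and of the promoter share of Atoh1 only against Pou4f3 only (3.63 to 8.87 points) did so in every alternative run. The number of sites with both factors was 9445 with all called peaks, 1167 at −log10 p 10 or more and 226 at 20 or more. The share of Atoh1 sites with Pou4f3 and of Pou4f3 sites with Atoh1 was 16.8% and 18.7% with windows of 100 bp, 28.7% and 30.6% with 1000 bp, 22.3% and 24.7% with full peak intervals, 36.8% and 38.8% with all called peaks, 17.4% and 21.8% at −log10 p 10 or more, 11.0% and 16.6% at 20 or more, 23.9% and 23.8% with lists of equal length, 20.4% and 21.6% without bins of 50 or more sites, 21.1% and 22.6% without bins of 100 or more, and 22.2% and 24.2% at the lowest when a chromosome was left out. The median summit distance was 30 bp with windows of 100 bp and at −log10 p 10 or more, 80 bp with 1000 bp and 22 bp at −log10 p 20 or more. The difference in median Pou4f3 fold was 0 with all called peaks and at either −log10 p limit. The promoter share of sites with both factors minus Atoh1 only turned to 1.95 points with windows of 1000 bp and 0.342 without bins of 50 or more sites, and was -0.613 without bins of 100 or more. At −log10 p 10 or more it was -13.2 points and at 20 or more -14.9. Against Pou4f3 only it turned to -2.18 with windows of 100 bp, -1.78 with all called peaks, -4.33 at −log10 p 10 or more and -7.10 at 20 or more, and was 0.541 with full peak intervals. The difference in Atoh1 peaks of iAtoh1 turned to 18.4 with all called peaks. Genes with a site of both factors within 50 kb of any start numbered 4275. The causes were not tested.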

Other observations

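Tandem arrays of longer units (13 to 60 bp) were found around 1.48% of the Atoh1 summits of sites with both factors, 1.56% of Atoh1 only summits and 0.561% of Pou4f3 only summits. Of the 50 Atoh1 only sites with the highest fold 7 lay in such an array, and of the 50 Pou4f3 only sites with the highest fold 0. The median Atoh1 fold of Atoh1 only sites was 3.67 in arrays and 3.01 elsewhere, whereas the median Pou4f3 fold of Pou4f3 only sites was 3.06 in both.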
